A study of Mus musculus with 2 samples.

Results

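The peroxiredoxin genes Prdx1 to Prdx6, the glutathione peroxidase genes Gpx1 and Gpx4 and the superoxide dismutase genes Sod1 and Sod2 encode enzymes that remove superoxide and peroxides in most mammalian cells. These 10 genes were taken by mouse symbol, and all 10 were found among the 17215 genes listed by NCBI gene number in both tables. The cells were MC3T3-E1, a clonal mouse line of pre-osteoblasts from newborn calvaria, cultured with formaldehyde (FA), a reactive aldehyde that crosslinks protein and DNA. One library came from cells given 100 µM formaldehyde and the other from cells given 300 µM, so there is 1 library per dose. The labels name no exposure time, and untreated cells were not analysed here. Every difference below is therefore one between 2 libraries, without a replicate, and no p-value can be given.

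Superoxide dismutases convert superoxide into hydrogen peroxide, SOD1 with copper and zinc mainly in the cytosol and SOD2 with manganese in the mitochondrial matrix. Peroxiredoxins and glutathione peroxidases then reduce hydrogen peroxide and organic peroxides to water and alcohols. A typical 2-Cys peroxiredoxin is oxidised at its peroxidatic cysteine, forms a disulfide with a partner subunit and is reduced again by thioredoxin, which thioredoxin reductase recharges with NADPH. When the cysteine is overoxidised, sulfiredoxin can repair it. GPX1 and GPX4 carry selenocysteine at their active site and draw on glutathione, and GPX4 reduces lipid peroxides within membranes.

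The catalytic codons separate the cysteine enzymes, most of them recycled by thioredoxin, from the selenocysteine enzymes recycled by glutathione. The 45-base stretches of coding sequence below come from the GENCODE release M21 representative transcript of each gene, written 5′ to 3′, with the catalytic codon in capitals. In the 6 peroxiredoxins the capitals mark the codon of the peroxidatic cysteine, and in the 2 glutathione peroxidases the TGA that is read as selenocysteine.
Prdx1: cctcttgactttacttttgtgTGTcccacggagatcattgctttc
Prdx2: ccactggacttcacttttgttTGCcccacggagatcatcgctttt
Prdx3: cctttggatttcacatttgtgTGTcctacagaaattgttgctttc
Prdx4: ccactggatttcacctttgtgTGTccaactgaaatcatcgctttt
Prdx5: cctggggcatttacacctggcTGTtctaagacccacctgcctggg
Prdx6: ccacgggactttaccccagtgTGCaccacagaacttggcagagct
Gpx1: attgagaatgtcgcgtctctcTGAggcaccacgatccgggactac
Gpx4: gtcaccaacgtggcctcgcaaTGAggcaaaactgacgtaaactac
The catalytic codon is number 52 of 199 in Prdx1, 51 of 198 in Prdx2, 109 of 257 in Prdx3 and 127 of 274 in Prdx4. PRDX3 and PRDX4 begin with a leader that sends them to mitochondria and to the secretory pathway. In-frame TGA is codon 47 of 201 in Gpx1 and codon 73 of 197 in Gpx4.

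Levels are in FPKM (mapped fragments relative to transcript length and to the library's total), which lets genes be set side by side within a library. Between the libraries the summed FPKM differed, and ratios depend on the scaling. The low values place the depth near 18500000 fragments at 100 µM and 19000000 at 300 µM. Genes at or above 1 FPKM numbered 10206 and 9332. Of the 10 osteoblast lineage markers, Col1a1, Col1a2, Sparc, Postn and Spp1 exceeded 250 FPKM at both doses. The others were low. The transcription factor genes Runx2 and Sp7 stood at 7.99 and 3.6 FPKM and at 7.21 and 9.47 FPKM. Ibsp stood at 1.83 and 1.77 FPKM and Alpl at 0.98 and 1.06 FPKM, and Bglap, the marker of mature osteoblasts, was listed at 0 and 0.49 FPKM. Red cells are rich in PRDX2 and GPX1. The 6 erythroid markers listed summed to 0.47 FPKM with 100 µM and 0.12 FPKM with 300 µM, with Hbb-bs and Slc4a1 at 0 in both. Those of adipocytes (4 listed) summed to 0 and 0.02 FPKM, and those of endothelium (4 listed) to 0.12 and 0.10 FPKM. Among 6 macrophage markers Lyz2 stood at 13.2 and 26.5 FPKM and Cd68 at 2.57 and 0.77 FPKM, while Ptprc and Itgam were below 0.1 FPKM and Adgre1 was listed at 0 in both.

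Differences are given as the log2 ratio of FPKM + 1, 300 µM over 100 µM, and a gene at or beyond 2-fold on this scale is called higher or lower. The 10 enzyme genes lay between -0.01 and 1.05, a median of 0.55. One of them, Gpx4, was at least 2-fold higher at 300 µM and 0 were at least 2-fold lower. Over the 10123 genes that averaged 1 FPKM or more, 6.09% were called higher and 29.8% called lower, with a median of -0.30. Thus 616 genes were higher and 3020 lower, which became 1472 (14.5%) and 2261 (22.3%) when ratios were centred on the median gene. A share of 1 in 10 higher is near that background. In RNA from a whole culture, fewer cells that express a gene and less of its RNA per cell cannot be told apart.

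The share of lower genes depended on level, and the enzymes are abundant. Of the 817 genes that averaged 100 FPKM or more, 6.12% were called higher and 2.69% lower, and their median log2 ratio was 0.48. The 8 members at that level had a median of 0.70. At 1.5-fold, a size chosen after the data were seen for this level, 5 of these 8 were higher, against 41.7% of the 817. The middle part of the 817 genes (interquartile range) ran from 0.10 to 0.77. Prdx1 and Prdx3 lay below it, Gpx1 and Gpx4 above, and Prdx5 and Sod1 inside. Prdx2 (0.78) and Prdx4 (0.75) lay at its upper edge. That edge falls within their 95% intervals from counting error alone, 0.73 to 0.83 and 0.68 to 0.81. The median of the 8 members lay inside that range.

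**Figure D1:**
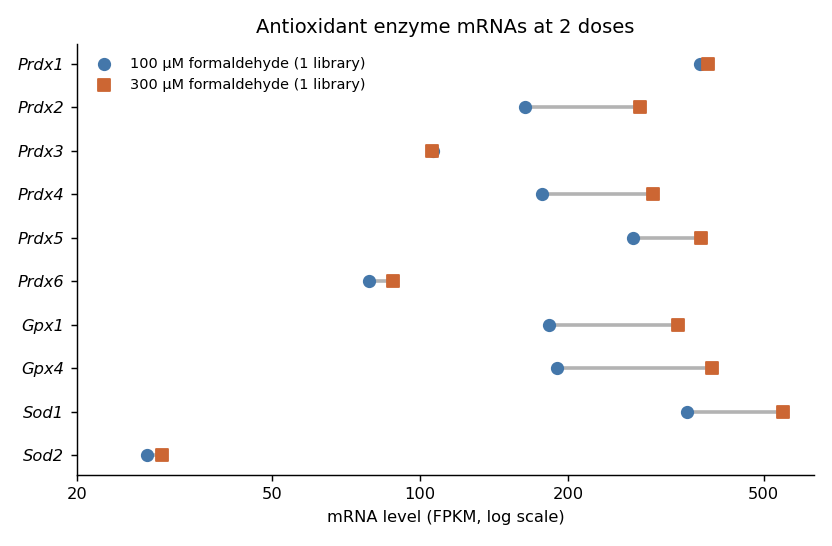
Levels of the 10 enzyme mRNAs in FPKM (log scale) at 100 µM (circles) and 300 µM formaldehyde (squares), 1 library each, joined by a line. The lines are long for Gpx4, Gpx1, Prdx2 and Prdx4 and hardly visible for Prdx1 and Prdx3, and Sod2 lies well to the left at 27.8 and 29.8 FPKM.

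The dismutases differed from each other, in a direction that depended on the scale. Sod1 stood at 349 FPKM with 100 µM and 546 FPKM with 300 µM (log2 ratio 0.64) and was the most abundant of the 10 at 300 µM. Sod2 stood at 27.8 and 29.8 FPKM, a log2 ratio of 0.10, and was the least abundant at both doses. By rank among all listed genes, Sod1 was number 211 and then 178, and Sod2 number 2859 and then 2369. The ratio of Sod1 to Sod2 was 12.6 at 100 µM and 18.3 at 300 µM, which no single factor per library can change. When the trend of the ratio with transcript length and GC content over all genes was subtracted, the order turned round, at -0.47 for Sod1 and 0.67 for Sod2. That subtraction kept the median gene at -0.30, as on the deposited scale. The copper chaperone gene Ccs, whose product loads SOD1, stood at 42.3 and 73.3 FPKM, so that the ratio of Sod1 to Ccs was 8.27 and 7.45. Extracellular Sod3 stood at 7.16 and 6.78 FPKM. Sod1 shares 23.1% of its 50-base words with the pseudogene Gm8566, and how reads were divided between such copies is not known.

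Cytosolic 2-Cys peroxiredoxins also parted. Prdx1, the most abundant member at 100 µM, stood at 371 FPKM there and at 385 FPKM with 300 µM (log2 ratio 0.05). Prdx2, its close relative, stood at 163 and 280 FPKM, a log2 ratio of 0.78. Prdx1 mRNA was thus 2.28 times as abundant as Prdx2 mRNA at 100 µM and 1.37 times at 300 µM. From the estimated fragments, counting error alone gives 95% intervals of 0.02 to 0.08 for Prdx1 and 0.73 to 0.83 for Prdx2. These intervals do not hold the variation between cultures, and reads that carry no molecular identifier may be copies of 1 molecule. With the length and GC trend removed, the log2 ratio was 0.05 for Prdx1 and 0.39 for Prdx2, so the 2 lay closer together than as deposited. Prdx1 shares 10.9% of its 50-base words with other annotated genes, most with Gm21399 (7.5%) and Gm7204 (6.3%). Prdx2 shares 23.8%, of which the largest part, 9.0%, is with the pseudogene Tdpx-ps1. It shares 8.1% with Junb, a neighbour on the opposite strand, which stood at 87.2 and 216 FPKM, and 6.7% with Rnaseh2a, also on the opposite strand, at 14.6 and 23.7 FPKM. Whether the counting used strand is not given in the sources used here, and the part of these copies and neighbours in the Prdx1 and Prdx2 values was not tested.

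On the deposited scale the organelle peroxiredoxins went separate ways as well. Prdx3, the mitochondrial 2-Cys enzyme, stood at 106 FPKM in both libraries, a log2 ratio of -0.01 with a counting interval of -0.08 to 0.07. Prdx4, the 2-Cys enzyme of the endoplasmic reticulum, which couples peroxide removal to disulfide formation in secreted proteins, stood at 177 and 298 FPKM, a log2 ratio of 0.75. The ratio of Prdx4 to Prdx3 was 1.67 at 100 µM and 2.82 at 300 µM. With the length and GC trend removed, the log2 ratio was -0.0019 for Prdx4 and -0.39 for Prdx3. Both genes share 0.0% of their words with any other gene. The endoplasmic reticulum peroxidase genes Gpx7 and Gpx8 stood at 33.1 and 56.0 FPKM and at 87.3 and 116 FPKM, log2 ratios of 0.74 and 0.40. In the mitochondrial matrix, Prdx3 and Sod2 together summed to 134 FPKM with 100 µM and 135 FPKM with 300 µM.

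Prdx5, an atypical 2-Cys enzyme found in mitochondria, peroxisomes and cytosol, stood at 271 and 373 FPKM, a log2 ratio of 0.46. It shares 29.7% of its words with Trmt112, a neighbour on the opposite strand, which stood at 116 and 173 FPKM. Prdx6, the 1-Cys enzyme, which is reduced with glutathione rather than thioredoxin and also acts on phospholipids, stood at 78.5 and 88.1 FPKM, a log2 ratio of 0.16. Its copy Prdx6b was listed at 0 in both libraries. Summed over the 6 peroxiredoxins, the level was 1167 FPKM with 100 µM and 1529 FPKM with 300 µM, which is 1.31 times as high.

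On the deposited scale the selenium-dependent glutathione peroxidases had the highest ratios of the 10. With the length and GC trend removed, Gpx4 (0.29) and Gpx1 (0.18) lay below Sod2 (0.67) and Prdx2 (0.39). Gpx1, the cytosolic enzyme that reduces hydrogen peroxide, stood at 183 and 335 FPKM, a log2 ratio of 0.87. Gpx4, the phospholipid hydroperoxide enzyme that protects cells from ferroptosis, stood at 190 and 393 FPKM, a log2 ratio of 1.05 with a counting interval of 0.99 to 1.11 that spans the 2-fold line. The ratio of Gpx4 to Gpx1 was 1.04 and 1.17. Gpx1 shares 0.0% of its words with other genes, but 68.9% of those of Gpx4 occur in the processed pseudogene Gpx4-ps2, so the Gpx4 value is uncertain. Catalase, the peroxisomal enzyme encoded by Cat, which breaks down hydrogen peroxide without a thiol, stood at 24.1 and 29.7 FPKM (log2 ratio 0.29, and -0.07 on equal sums). Gpx3 was listed at 0.10 and 0 FPKM and Gpx2 at 0 in both.

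**Figure D2:**
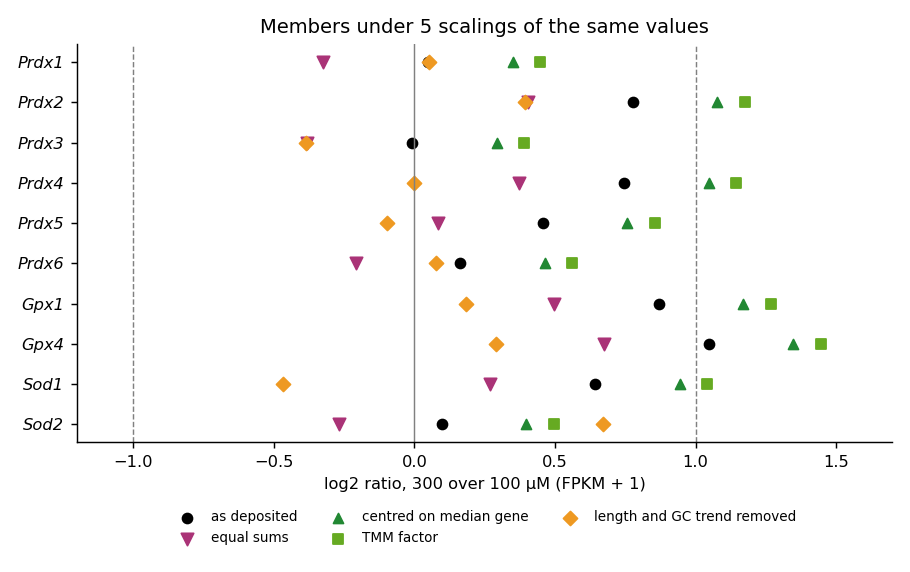
Log2 ratio of each member, 300 over 100 µM, under 5 scalings of the same values, with dashed lines at 2-fold. All 10 lie above 0 when centred on the median gene or by the TMM factor, whereas on equal sums Prdx1, Prdx3, Prdx6 and Sod2 lie below 0 and 6 lie above. With the length and GC trend removed, Prdx3, Prdx4, Prdx5 and Sod1 lie below 0 and Sod2 is the highest. On that scale the median gene stays at -0.30.

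Direction for the members with small ratios depended on the scale. With FPKM as deposited 9 of 10 were above 0, on equal sums 6 of 10, and centred on the median gene 10 of 10. Centring raised every ratio by 0.30, an unweighted TMM factor (a trimmed mean of ratios) raised them by 0.40, and scaling to equal sums lowered them by about 0.38, since the FPKM of all genes added up to 532944 with 100 µM and 691521 with 300 µM. Prdx1 had -0.33 on equal sums and 0.35 after centring, Prdx3 -0.38 and 0.29, Prdx6 -0.21 and 0.46, and Sod2 -0.27 and 0.40. Gpx4, Gpx1, Prdx2 and Prdx4 were above 0 on each of these scales and at least 2-fold higher after centring, where 14.5% of all genes were. With the length and GC trend removed 6 of 10 were above 0, with Prdx4 at -0.0019. This removal kept the median gene at -0.30 rather than at 0. Prdx4 and Prdx5 (-0.10) lay above that median, and Prdx3 (-0.39) and Sod1 (-0.47) below it. On equal sums 0 of the 10 were 2-fold higher, against 2.76% of all genes, and 0 were 2-fold lower, against 40.5%. With the TMM factor 5 were 2-fold higher (18.1% of all genes). Without any shift, 5 of 10 were at least 1.5-fold higher (18.8% of all genes) and 0 were 3-fold higher (1.22%). On the deposited scale the order from low to high was Prdx3, Prdx1, Sod2, Prdx6, Prdx5, Sod1, Prdx4, Prdx2, Gpx1 and Gpx4, which a factor per library leaves in place by construction. Removing the length and GC trend can reorder genes and did: Sod1 became the lowest (-0.47) and Sod2 the highest (0.67). On the deposited scale, counting intervals of neighbours overlap from Prdx3 up to Prdx6 and from Sod1 up to Gpx1, and they are separate between Prdx6 and Prdx5, Prdx5 and Sod1, and Gpx1 and Gpx4.

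The 10 mRNAs together took up 0.360% of all FPKM with 100 µM and 0.410% with 300 µM. Without 85 genes with ribosomal protein symbols in the sum, the shares were 0.490% and 0.653%.

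**Figure D3:**
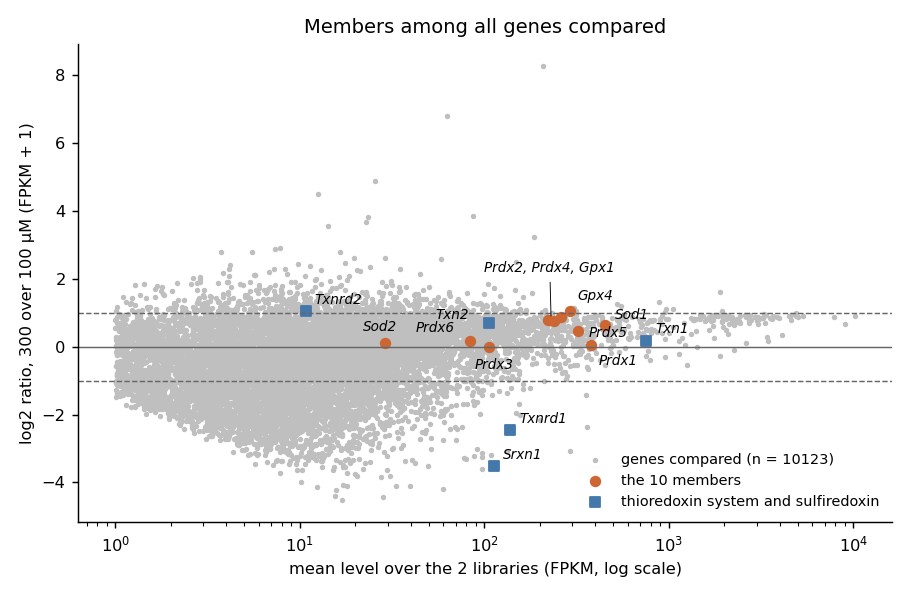
Log2 ratio, 300 over 100 µM, against mean FPKM (log scale) for 10123 genes (grey), the 10 members (circles) and genes of the thioredoxin system (squares). The members form a flat band between -0.01 and 1.05, a range that also holds 74.9% of the 817 genes of 100 FPKM or more. Srxn1 and Txnrd1 lie far below it at -3.52 and -2.47, among the 2.69% of genes of 100 FPKM or more that were called lower.

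Srxn1 and Txnrd1, which act in keeping peroxiredoxins reduced, lay far below the peroxiredoxins, whose ratios ran from -0.01 to 0.78, while Txn1 and Txn2 lay within that range. Srxn1, which encodes sulfiredoxin, was as abundant as many members at 100 µM, at 208 FPKM, and had 17.2 FPKM with 300 µM. Txnrd1, the cytosolic thioredoxin reductase, itself a selenoprotein, stood at 234 and 41.6 FPKM, a log2 ratio of -2.47. Its substrate thioredoxin, Txn1, stood at 705 and 799 FPKM (log2 ratio 0.18, and -0.19 on equal sums). The ratio of Prdx1 to Srxn1 mRNA was therefore 1.79 at 100 µM and 22.3 at 300 µM, and that of Prdx1 to Txnrd1 1.59 and 9.24. Both ratios are taken within a library and do not depend on a factor between the doses.

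The mitochondrial pair had ratios above 0. Txnrd2 stood at 6.66 and 14.9 FPKM, a log2 ratio of 1.05, and Txn2 at 81.1 and 132 FPKM, a log2 ratio of 0.70. The ratio of Prdx3 to Txnrd2 was 15.9 and 7.11. Across the 16 thioredoxin and peroxiredoxin partners compared, 2 were at least 2-fold higher and 5 lower, with a median of -0.24 (1 and 6 on equal sums). For all genes the shares were 6.09% and 29.8%, so the share of lower partners was near the background. Nxn, nucleoredoxin, a thioredoxin-like protein, stood at 16.7 and 58.5 FPKM. Sesn2, a sestrin, stood at 28.7 and 1.38 FPKM.

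**Figure D4:**
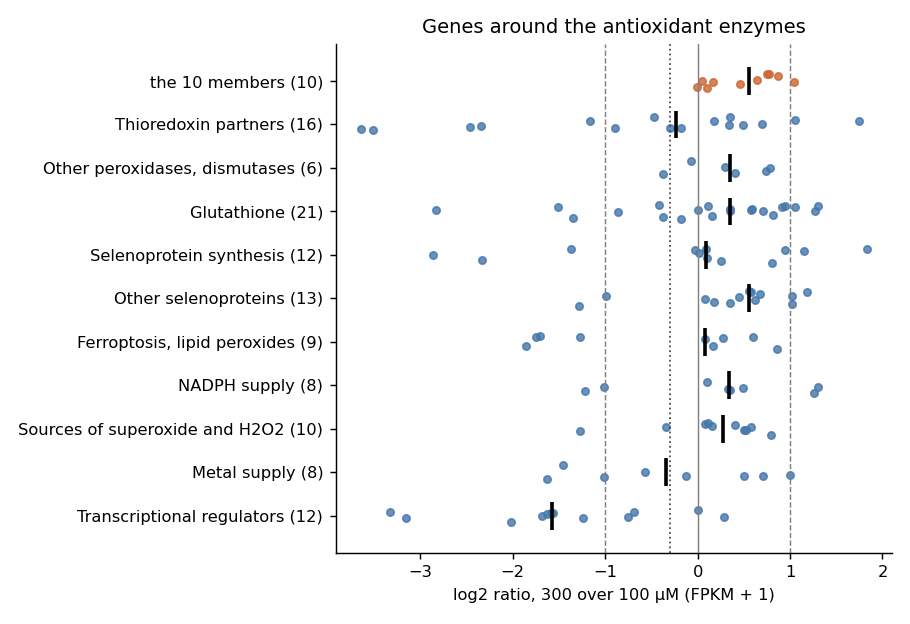
Log2 ratio of each gene compared in the 10 enzyme genes and in 10 lists around them, with the number of genes in brackets, a black bar at each median, a dotted line at the median of all genes (-0.30) and dashed lines at 2-fold. The enzymes span a range that also holds 74.9% of the 817 genes of 100 FPKM or more. The thioredoxin partners and glutathione genes, many of them at lower levels, reach far to the left, and the transcriptional regulators have the lowest median, -1.58.

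Of 21 glutathione genes compared, 3 were at least 2-fold higher and 3 lower, against 6.09% and 29.8% of all genes, with a median of 0.35. The counts were 7 and 3 after centring, 1 and 4 on equal sums, and 0 and 3 with the length and GC trend removed, where the median was -0.26. The 3 lower were Gclc and Gclm, the subunits of the rate-limiting enzyme of glutathione synthesis, at 48.0 and 5.87 FPKM and at 74.2 and 25.5 FPKM, and Chac2, a glutathione-degrading enzyme, at 9.12 and 2.97 FPKM. Gss, the second enzyme of synthesis, stood at 36.6 FPKM in both. The 3 higher were Mgst3, Gstt1 and Hagh, with log2 ratios of 1.30, 1.27 and 1.05. Gsr, the reductase that recycles glutathione for GPX1 and GPX4, stood at 20.2 and 14.9 FPKM, so the ratio of Gpx1 to Gsr was 9.06 at 100 µM and 22.6 at 300 µM.

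Selenoprotein synthesis, on which Gpx1, Gpx4 and the thioredoxin reductases depend, had 2 of 12 genes at least 2-fold higher and 3 lower, against the same 6.09% and 29.8%, with a median of 0.09 (-0.25 on equal sums). Sephs2, which makes the selenium donor, stood at 21.6 and 3.47 FPKM, although it shares 34.9% of its words with another annotated gene. Secisbp2l and Sepsecs, which act in selenocysteine insertion and its synthesis on tRNA, had log2 ratios of -2.86 and -1.37, while Secisbp2, the main binding protein of the selenocysteine insertion element, stood at 3.73 and 4.03 FPKM. Eefsec, the selenocysteine elongation factor, stood at 5.11 and 20.8 FPKM, with 10.0% of its words shared. The ratio of Gpx4 to Sephs2 was 8.79 and 113. Among 13 other selenoprotein genes 3 were at least 2-fold higher, Selenoh, Selenom and Msrb1 (1.18, 1.02 and 1.02), and 1 was lower, Selenoi (-1.28), against 6.09% and 29.8% of all genes. On equal sums 0 were higher and 2 lower, with the length and GC trend removed 0 and 0, and with a pseudocount of 5 FPKM 1 and 0. Their median was 0.56 as deposited, 0.18 on equal sums and 0.19 with the trend removed.

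Regulators of these enzymes were mostly lower. The 12 that were compared held 8 at least 2-fold lower ones and 0 higher ones, against 29.8% and 6.09% of all genes (7 and 0 after centring or with the length and GC trend removed, 10 and 0 on equal sums). Nfe2l2, which encodes the antioxidant response factor NRF2, stood at 74.6 and 6.54 FPKM, and Keap1, its inhibitor, at 21.1 and 6.32 FPKM, with 10.4% of its words in an overlapping gene. Bach1, a repressor at the same elements, and Nfe2l1 had log2 ratios of -3.16 and -2.02. The regulator list had a median of -1.58, and that of the 10 enzymes was 0.55.

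NRF2 binds antioxidant response elements, and the RefSeq promoter table (build GRCm38.p6, 250 bases before to 50 after each start) held 9 of the 10 genes, Prdx6 not among them. The core TGACNNNGC, searched on both strands, was in a window of 2 of these 9, Prdx1 and Sod1, and in 12.4% of 32851 windows in the table. Of the partners, only Srxn1 and Txnrd1 were searched: it was in 1 of 3 windows of Txnrd1 and in the window of Srxn1, 28 bases after the start. For the 3 matches that lie before a start, the 51 bases around each are shown on the gene's strand to give the setting of the element, with the match in capitals.
Prdx1, chr4:116685445-116685495, + strand, 133 bases before the start: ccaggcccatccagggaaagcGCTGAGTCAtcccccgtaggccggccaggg
Sod1, chr16:90220685-90220735, + strand, 56 bases before the start: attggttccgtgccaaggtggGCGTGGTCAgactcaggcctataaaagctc
Txnrd1, chr10:82859093-82859143, + strand, 92 bases before the start: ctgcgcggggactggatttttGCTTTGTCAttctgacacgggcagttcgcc
All 3 matches read on the opposite strand. The looser core TGANNNNGC, which contains the first, was in windows of 3 of the 9 genes (Prdx5 added) and in 41.3% of all windows. GGGCGG was in a window of each of the 9 and in 35.7% of all windows. CCAAT was in windows of 4 of the 9 and in 37.4% of all windows, and TATAAA in windows of 3 and in 13.6%. For each motif the members were counted by gene over any of their windows, 4 for Gpx4. The background counted single windows of all genes, so the shares are not in like units. A match is a description of letters and not of binding.

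**Figure D5:**
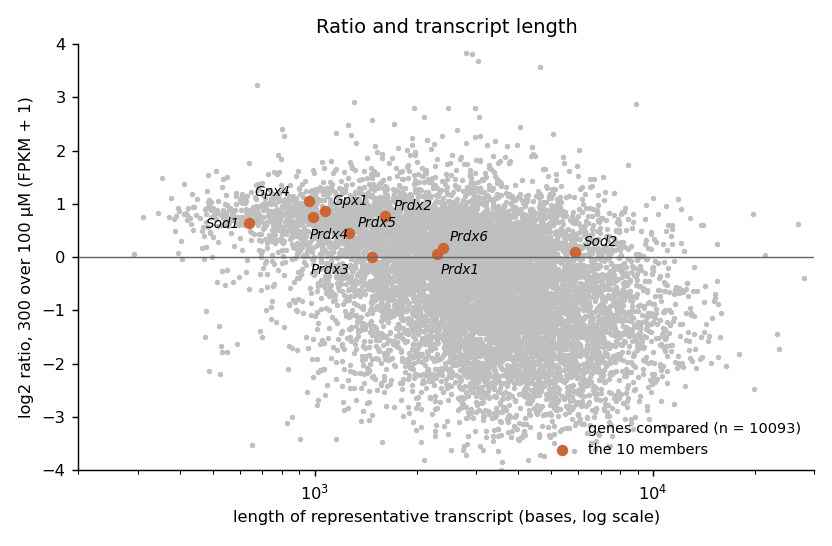
Log2 ratio, 300 over 100 µM, against the length in bases (log scale) of the representative transcript for 10093 genes (grey) and the 10 members (circles); 16 genes lie outside the axes. Ratios tend downward with length, the 5 members at or under 1262 bases lie at 0.46 or above, and Sod2, at 5861 bases, lies at 0.10.

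Transcript length moved with the ratio. The members' representative transcripts ran from 641 bases (Sod1) to 5861 bases (Sod2), with a median of 1370, against 2966 over all genes compared. Across all 10093 genes with a length, which are not independent, Spearman's rho of length with the log2 ratio was -0.41. Across the 10 members it was -0.61. With GC content rho was 0.16 across all 10093 genes and 0.78 across the 10 members. When the trend with length and GC content was removed from all genes, the members' median was 0.06, beside -0.30 for the median gene. On that scale 0 members were at least 2-fold higher, against 5.47% of all genes. These adjusted values take 1 transcript per gene, and Sod2 has 8 annotated transcripts of very different length. The part of length, and of the isoforms that the authors' counting chose, in the differences among the members was not tested.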

How the data were processed

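RNA of MC3T3-E1 cells was sequenced in 1 library per formaldehyde dose. The authors deposited 1 table per library in FPKM with 2 decimals, per the file headers. The submitters' processing notes name RSEM and Bowtie2. Versions, annotation and build: not given in the sources used here. Each FPKM value depends on the library's total and on how RSEM assigned reads to isoforms and copies.

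Symbols were found for 17179 of 17215 NCBI gene numbers in RefSeq (GRCm38.p6). Log2 ratios used a pseudocount of 1 FPKM, which understates the change of low genes. Genes that averaged 1 FPKM or more were compared, and the 10 members all passed. No test was made. Depth came from the step of FPKM times length among genes with 1 annotated transcript: steps of 54 and 52.5 bases placed 59.5% of 210 and 57.3% of 157 low values within 0.12 of a whole read, against 20.5% and 19.5% at the median step tried. Lengths, GC content (10093 genes) and 50-base words shared with other genes on either strand came from GENCODE release M21. The 10 lists (144 entries) were written from textbook knowledge. From each, up to 3 genes at or beyond 2-fold per direction that averaged 5 FPKM or more were named, plus 14 genes whatever their values. Other genes beside these, such as neighbours that overlap a member and further peroxidases, were named after their values were seen. Members and lists were chosen with earlier results of these data known. The 2-fold calls, the TMM factor and the trend removal were tested on simulated data. In these, equal numbers of genes were raised and lowered, unlike the mostly lower genes here. The depth estimate, the counting intervals and the shared words were not tested in this way. Alternatives were other pseudocounts, filters, folds and scalings. The software was Python 3.11.15 with scipy 1.17.1, pandas 2.3.3, matplotlib 3.10.9 and numpy 2.4.6.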

Additional observations from a re-analysis of the deposited data

How the results depend on the processing

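No paired analysis was possible because each dose has 1 library. On equal sums 0 members were at least 2-fold higher (median 0.18) and 279 of all genes were; centred on the median gene the numbers were 4 (0.85) and 1472; with the TMM factor 5 (0.95) and 1829; and with the length and GC trend removed 0 (0.065) and 552. At 1.5-fold 5 members and 1901 genes were higher, and at 3-fold 0 members and 123 genes, with 1653 genes lower. A pseudocount of 5 FPKM left 258 genes higher and 1630 lower. A mean of at least 10 FPKM left 358 and 1141, and a mean of at least 100 FPKM left 50 and 22, with 8 members at a median of 0.70. At 1.5-fold and that level, 5 members and 341 genes were higher and 54 genes lower. No member was lower under any of these settings. Without ribosomal protein genes the members' shares of summed FPKM were 0.490% and 0.653%. Of 60 alternative ratios of single members, 39 moved by more than counting error. The shifts of equal sums, centring and the TMM factor are each larger than any member's counting error, so ratios on these scales moved by construction. The count therefore reflects the settings chosen and is no measure of how stable the members are. The sign differed from that on the deposited scale for Prdx1, Prdx6 and Sod2 on equal sums, and for Prdx3 after centring and with the TMM factor. It also differed for Prdx4, Prdx5 and Sod1 with the length and GC trend removed, where the median gene stays at -0.30. Medians over these settings ranged from -0.59 to 0.26 for the thioredoxin partners and from -0.26 to 0.74 for glutathione genes. They ranged from -0.25 to 0.94 for selenoprotein synthesis and from -1.98 to 0.28 for the regulators. The upper end for glutathione genes came from the TMM factor, and that for the thioredoxin partners from 6 genes left at a mean of at least 100 FPKM. For selenoprotein synthesis and for the regulators, the upper end is a single gene left at that level, Rpl30 and Trp53.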

Other observations

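NADPH is the final electron donor for peroxiredoxins and glutathione peroxidases. Of 8 genes of its supply that were compared, 2 were at least 2-fold higher and 2 lower, against 6.09% and 29.8% of all genes, with a median log2 ratio of 0.34. The lower ones were G6pdx and Pgd, the oxidative enzymes of the pentose phosphate pathway, at 113 and 48.1 FPKM and at 124 and 60.9 FPKM. Taldo1 and Tkt, of the same pathway, had log2 ratios of 0.50 and 0.10. The higher ones were the isocitrate dehydrogenase genes Idh1, at 9.22 and 24.2 FPKM, and Idh2, at 55.9 and 135 FPKM. G6pdx shares 10.7% of its words with other genes. On equal sums 0 were higher and 2 lower, after centring 2 and 0, and with the length and GC trend removed 1 and 2. Among 9 genes of ferroptosis and lipid peroxide defence 0 were at least 2-fold higher and 4 lower, against the same shares of all genes, with a median of 0.08 (-0.28 on equal sums and -0.48 with the length and GC trend removed). Tfrc, the transferrin receptor, stood at 27.2 and 6.80 FPKM, Vkorc1l1 (12.3% of its 50-base words shared with other genes) at 12.1 and 2.91 FPKM, and Acsl4, which builds the polyunsaturated phospholipids that GPX4 protects, at 17.7 and 4.74 FPKM.

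The list of sources of superoxide and hydrogen peroxide had 10 genes compared, among them P4hb and Pdia4, whose products are disulfide isomerases rather than oxidases. Of these 10 genes, 0 were at least 2-fold higher and 1 was lower, against 6.09% and 29.8% of all genes (median 0.28, and -0.09 on equal sums). The lower one was Ero1a, an oxidase of the endoplasmic reticulum, at 17.1 and 6.48 FPKM. Of 8 genes compared in the list of metal supply, 1 was higher and 3 were lower, again beside 6.09% and 29.8% of all genes. That list also held Mtfr1, a mitochondrial fission regulator gene, which was neither higher nor lower. Their median was -0.35 as deposited, -0.05 after centring and 0.05 with the TMM factor, and 0 were higher on equal sums, with the length and GC trend removed or with a pseudocount of 5 FPKM. Atox1, the copper chaperone, stood at 103 and 208 FPKM, and the transporter genes Slc39a14 and Slc31a2 stood at 19.1 and 5.50 FPKM and at 8.11 and 3.51 FPKM. Of the 6 other peroxidase and dismutase genes compared, 0 were at least 2-fold higher and 0 lower, against 6.09% and 29.8% of all genes. After centring 2 were higher and 0 lower, against 14.5% and 22.3%. Their median was 0.35 as deposited and -0.02 on equal sums.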
